A study of Drosophila melanogaster with 6 samples.

Results

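A set of 45 genes read higher in heads of mir-14 mutant flies than in control heads. The same genes read lower than that in heads of mutants that expressed miR-14 in the insulin-producing cells. The set was chosen by measured intensity. Among probe sets assigned to 1 gene, the lower of both mutant arrays had to be at least 1.4 times the higher control array, and the higher rescue array at most the lower mutant array divided by 1.4. The highest of the 6 arrays had to reach 40. Cytochrome P450, glutathione and UDP-glycosyl transferase, Cpr cuticle, odorant binding, odorant, gustatory and ionotropic receptor genes and Arc1 were left out. Where several probe sets of a gene met the limits, the brightest stood for the gene. The 45 genes were taken from 11550 with a probe set outside these families. The mutant against control and the rescue against mutant differences made the choice, so both are described here without a test.

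Affymetrix arrays measured head RNA of male Drosophila melanogaster 5 days into adult life, in 3 groups of 2 biological replicates. Rescue flies were homozygous dme-miR-14 mutants that expressed dme-miR-14 in the insulin-producing cells (IPCs), mutant flies were homozygous for the dme-miR-14 mutation without that expression, and control flies were wild-type. The loss of miR-14 elsewhere in the body is thus shared by rescue and mutant flies. The promoter that drove miR-14 in the rescue, the strain of the controls, and how many heads made up a sample are not given in the sources used here.

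A microRNA is a short RNA that pairs with messenger RNAs and lowers the protein made from them, mostly by shortening the life of the message or blocking its translation. The insulin-producing cells are a small cluster of neurosecretory neurons in the fly brain that release insulin-like peptides into the hemolymph, and through these peptides act on fat body, muscle and other tissues of the whole animal. The 3 groups allow a search for genes of this kind, higher in mutant than in control heads and lower in mutants with miR-14 in these cells. In whole heads, fewer cells of a type and less RNA per cell cannot be told apart.

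Among the 9431 probe sets outside the left-out families that reached an intensity of 40, 4.57% met the mutant over control limit and 1.1% met the mutant over rescue limit. Both limits were met by 45 probe sets, 0.477%. The same limits turned round, lower in the mutant than in both other groups, were met by 39 genes. Of 424 genes at or above the mutant over control limit, 265 kept both rescue arrays at least 1.4 times above both control arrays. The mutant arrays enter both limits, so these counts are a description.

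**Figure D1:**
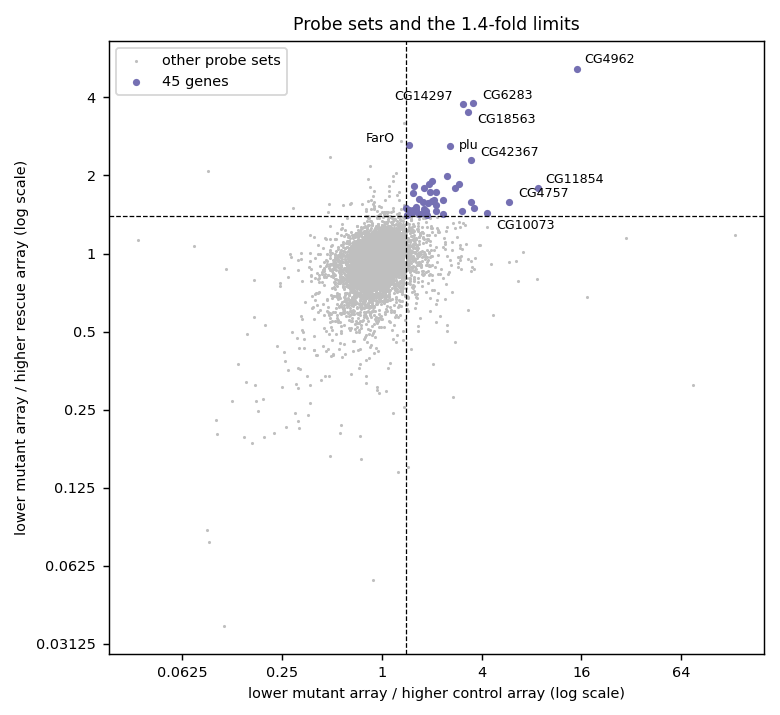
Each point is a probe set that reached an intensity of 40. The horizontal axis is the lower mutant array over the higher control array, the vertical axis the lower mutant array over the higher rescue array, both on log scales, and the dashed lines mark 1.4. The 45 genes fill the upper right corner, with CG4962 farthest from the vertical axis limit of 1.4, at 5.16.

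Some genes lay close to a limit. Against control, period (per), CG15739 and tfc were just inside, at ratios of 1.4, 1.43 and 1.45, and dgt3, gol and CG10062 just outside, at 1.38, 1.37 and 1.37. Against rescue, CG15739, BomT3 and spartin were just inside, at 1.41, 1.41 and 1.42, and Tango2, CG30269 and Nmda1 just outside, at 1.399, 1.398 and 1.389. In brightness, CARPB, CG15020 and CG33978 were the dimmest inside, with highest arrays of 53, 56.1 and 62.1, while CG4770, lncRNA:CR32027 and CG17364 met both ratios but reached only 39.3, 30.5 and 29.2. At a limit of 2-fold, 6 genes were left: CG4962, CG6283, CG14297, CG18563, plu and CG42367.

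In the 45 genes the mutant over control difference had a median of 1.16 on the log2 scale, between 0.54 and 4.22. The rescue minus mutant difference had a median of -0.85, between -2.52 and -0.55. Over the 8455 genes of the same intensity, each by its brightest probe set, the medians were 0.04 and -0.03. At least 2-fold differences between mutant and control were reached by 30 of the 45 genes and at least 4-fold differences by 9. Between mutant and rescue, 13 reached 2-fold. The median intensity of the 45 was 104 in rescue, 168 in mutant and 86.8 in control heads, an order that the choice sets in part, and 9 had both control arrays under 30. As a guide to the floor of the arrays, the dim controls AFFX-r2-TagB_at and AFFX-TrpnX-5_at spanned 13 to 15.7 and 8.4 to 9.6.

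**Figure D2:**
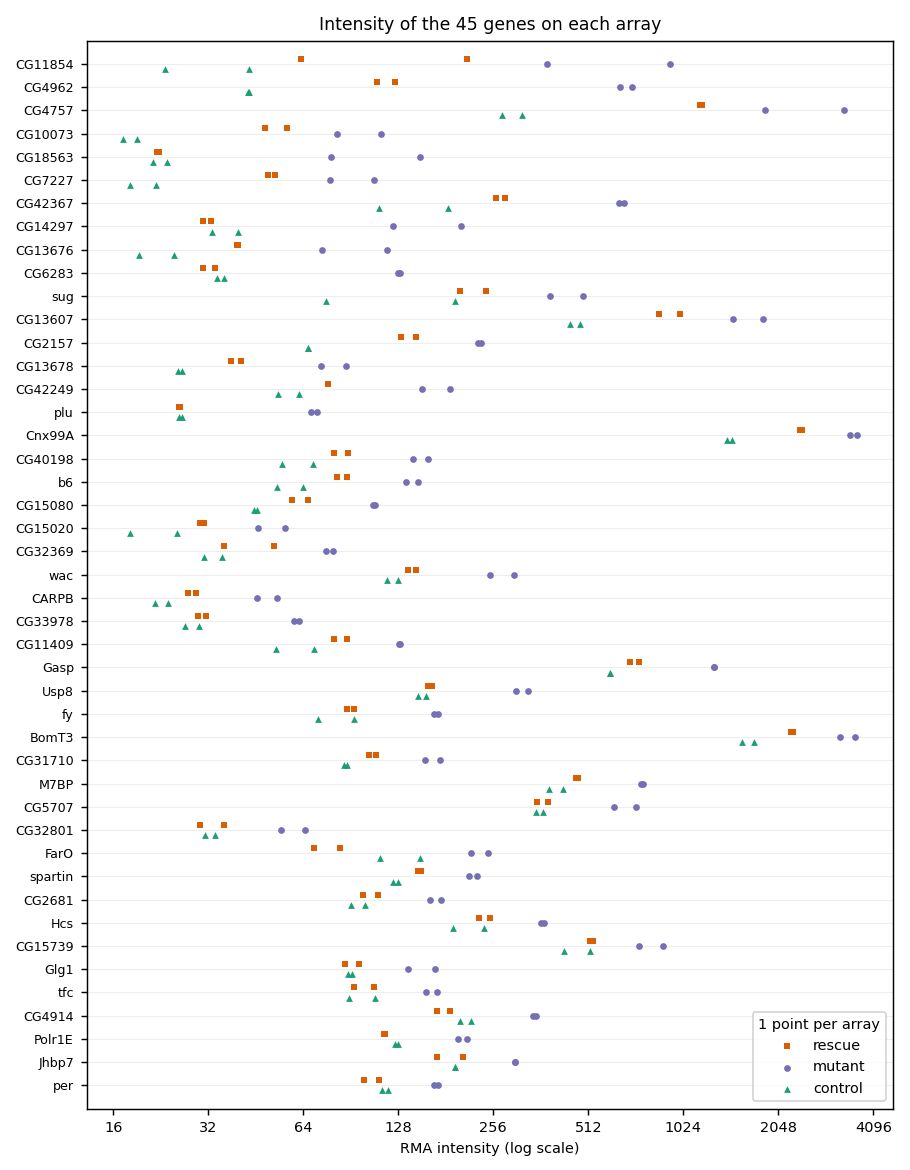
RMA intensity of each of the 45 genes on each array, on a log scale, with 1 point per array and genes ordered by the mutant over control difference. Mutant points lie to the right of all rescue and control points in every row, as the choice requires, while the rescue points sit anywhere from below the control points (FarO) to well above them (CG4757).

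The genes are described below by known role, and no role was tested for its share of the set. Several of the genes belong to sugar and fat metabolism. Sugarbabe (sug) encodes a zinc finger transcription factor that responds to dietary sugar and was reported before as a target of miR-14 in the insulin-producing cells. It read 201.3 and 241.9 in rescue, 386.8 and 490.6 in mutant, and 193.1 and 75.7 in control heads. The control arrays differed 2.55-fold from each other, and both rescue arrays lay above both of them. In the same arrays the 5' to 3' signal ratio of the actin control probe sets, a measure of RNA integrity, was 0.370 and 0.450 in rescue, 0.205 and 0.335 in mutant, and 0.306 and 0.138 in control. The lowest ratio and the lowest sug level were thus both on control replicate 2. The rescue minus control difference of sug was 0.87 on the log2 scale. It was -0.14 in a fit that also held a 5' to 3' index, the mean log2 of the actin and GAPDH ratios. This index was highest on both rescue arrays, so the fit cannot fully separate it from group. The part of RNA integrity in the sug levels was not tested.

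CG6283, a gene of the lipase family, read 33.5 and 30.8 in rescue, 129.5 and 127.9 in mutant, and 36.0 and 34.0 in control heads. Replicates were close, the mutant lay 4.01-fold above the rescue and 3.68-fold above the control, and both rescue arrays were just below both control arrays. FarO, a fatty acyl-CoA reductase of the oenocytes, the cells that make cuticular lipids, read 83.6 and 69.3 in rescue, 245.6 and 218.2 in mutant, and 112.1 and 149.4 in control heads. It was 3.04-fold higher in mutant than in rescue heads and 1.79-fold higher in mutant than in control heads, so that the rescue lay below the control as well. CG4770, of the same reductase family, was dimmer, with 19.6 and 19.5 in rescue, 39.3 and 31.2 in mutant, and 19.7 and 18.5 in control heads. It met both ratio limits and missed the set on brightness, and its rescue and control arrays overlapped, unlike those of FarO.

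CG4757, which encodes a carboxylesterase, was among the brightest of the set, at 1173.4 and 1155.7 in rescue, 3299.5 and 1852.7 in mutant, and 316.1 and 272.7 in control heads. Its mutant arrays differed 1.78-fold, and the rescue stayed 3.97-fold above the control. CG7227, of the CD36 family of scavenger receptors, which bind lipids and lipoproteins, read 52.0 and 49.5 in rescue, 107.3 and 78 in mutant, and 21.8 and 18.1 in control heads. Here too the rescue lay between the other groups without touching either. Hcs, the holocarboxylase synthetase that attaches biotin to carboxylases, had 230.3 and 249.6 in rescue, 370.0 and 361.1 in mutant, and 190.4 and 238.7 in control heads, and its rescue and control arrays overlapped.

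Secreted and hemolymph proteins are described next. CG11854 belongs to the juvenile hormone binding and takeout family of small secreted carriers of lipophilic molecules. It had the largest mutant over control difference, with 63.1 and 211.1 in rescue, 930.5 and 377.6 in mutant, and 43.0 and 23.4 in control heads. The replicates differed 3.35-fold in rescue, 2.46-fold in mutant and 1.84-fold in control, the widest replicate gaps of the set in rescue and in mutant. Jhbp7, of the same family, is the gene next to CG11854 in the order of measured genes on chromosome arm 3R. Its levels were 169.8 and 204.4 in rescue, 300.3 and 299.6 in mutant, and 193.4 and 194.2 in control heads, a difference of 1.55-fold between mutant and control against 18.7-fold for CG11854.

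CG18563, a serine protease homologue with a clip domain, of the kind found in hemolymph cascades, read 22.3 and 22 in rescue, 150.1 and 78.3 in mutant, and 23.7 and 21.4 in control heads. The rescue arrays lay within the range of the control arrays, at a level close to the dim end of the arrays, and the mutant arrays differed 1.92-fold. CG4914, a trypsin-like serine protease, read 169.4 and 187.0 in rescue, 341.2 and 349.7 in mutant, and 217.0 and 200.5 in control heads. BomT3, one of the Bomanins, short peptides induced by the Toll pathway of immunity, was bright in every group, at 2275.9 and 2249.4 in rescue, 3579.2 and 3212.1 in mutant, and 1713.0 and 1575.4 in control heads. Unlike CG4914, whose rescue arrays lay below both control arrays, BomT3 kept both rescue arrays above control.

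Extracellular matrix was represented by Gasp, a chitin-binding protein of cuticle and trachea, with 739.6 and 692.7 in rescue, 1276.9 and 1281.7 in mutant, and 598.4 and 601.2 in control heads. CG13676, of the peritrophin family of chitin-binding proteins, had 39.3 and 39.6 in rescue, 73.2 and 117.5 in mutant, and 19.3 and 25.0 in control heads. CG15020, a protein with a zona pellucida domain, a fold of apical matrix proteins, had 31.0 and 30.1 in rescue, 45.9 and 56.1 in mutant, and 25.5 and 18.1 in control heads. In all 3 both rescue arrays were above both control arrays, and the 2 dimmer genes had control levels near the floor of the arrays.

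Genes of the secretory and endosomal route were also in the set. Cnx99A encodes calnexin, a chaperone of the endoplasmic reticulum that folds glycoproteins and is needed for rhodopsin in the eye. It read 2389.4 and 2426.4 in rescue, 3451.5 and 3622.1 in mutant, and 1464.0 and 1409.5 in control heads, and had the highest mean mutant level of the 45. No group overlapped another and replicates differed 1.02-fold in rescue, 1.05-fold in mutant and 1.04-fold in control. Photoreceptor markers differed between groups too. The summed intensity of 5 measured markers was 19015.2 and 18582.2 in rescue, 25928.4 and 25155.3 in mutant, and 27955.8 and 30231.1 in control heads, with 3 of the 5 lower in rescue than in mutant heads, 1 lower in mutant than in control heads and 4 lower in rescue than in control heads (limma). Of the 5, inaC and inaD had both mutant arrays above all others, as Cnx99A did. Their rescue arrays were lowest, while in Cnx99A the control arrays were. In trp and trpl both control arrays were highest, and in chp control replicate 2 was. The part of these markers in the Cnx99A difference was not tested.

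Glg1, a Golgi glycoprotein, read 86.6 and 95.9 in rescue, 167.2 and 137.7 in mutant, and 91.1 and 88.9 in control heads. Usp8, a deubiquitinase that acts in endosomal sorting, read 163.5 and 158.4 in rescue, 302.9 and 330.4 in mutant, and 147.8 and 156.9 in control heads. The endosomal protein gene spartin had 147.9 and 151.5 in rescue, 226.7 and 215.1 in mutant, and 127.9 and 123.0 in control heads. Rescue and control were close in Glg1 and Usp8, and a little apart in spartin.

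Cell division, polarity and cytoskeleton genes included plutonium (plu), an ankyrin repeat protein that controls DNA replication in the early embryo. It read 26.1 and 25.8 in rescue, 70.6 and 67.9 in mutant, and 25.8 and 26.4 in control heads, so that rescue and control overlapped and the mutant stood 2.65-fold above control. The gene wac, for a subunit of the augmin complex that seeds microtubules in the spindle, had 145.4 and 137.3 in rescue, 297.5 and 250.6 in mutant, and 117.8 and 127.4 in control heads. Another augmin subunit gene, dgt3, lay just outside the mutant over control limit. Fuzzy (fy), a planar polarity effector, had 88.1 and 92.4 in rescue, 166.0 and 170.7 in mutant, and 71.1 and 92.7 in control heads.

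Among the remaining named genes, per, the transcriptional repressor at the core of the circadian clock, had the smallest mutant over control difference of the set. It read 99.6 and 111.0 in rescue, 171.2 and 166.5 in mutant, and 113.2 and 118.9 in control heads. The labels used here give no time of day of collection. Polr1E, a subunit of RNA polymerase I, which transcribes ribosomal RNA, read 114.9 and 116.3 in rescue, 198.5 and 211.1 in mutant, and 127.8 and 124.9 in control heads. In both genes the rescue arrays lay below both control arrays. The gene tfc read 106.9 and 92.7 in rescue, 169.5 and 157.1 in mutant, and 89.2 and 108.0 in control heads.

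Most of the set carries only a CG number, 26 of 45 symbols. The largest mutant over control difference among those for which no family is named here was in CG4962. It read 124.5 and 109.4 in rescue, 701.6 and 642.8 in mutant, and 42.9 and 42.7 in control heads. This gene combined tight replicates with the largest mutant over rescue difference, 5.75-fold, and a rescue level still 2.73-fold above control. CG14297 had 30.8 and 32.6 in rescue, 202.8 and 122.8 in mutant, and 32.9 and 39.8 in control heads, and CG42367 had 278.8 and 261.6 in rescue, 640.4 and 662.2 in mutant, and 110.9 and 184.2 in control heads. In CG14297 both rescue arrays lay below both control arrays, and in CG42367 they lay above.

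CG10073, of a family of metallopeptidases, had 48.3 and 57.0 in rescue, 112.5 and 81.9 in mutant, and 19.0 and 17.2 in control heads. CG10062, a gene of the same family, lay just outside the mutant over control limit. CG13607 was bright, with 858.8 and 1002.5 in rescue, 1836.7 and 1468.1 in mutant, and 446.2 and 480.7 in control heads. CG2157 had 130.5 and 145.5 in rescue, 233.2 and 229.6 in mutant, and 66.4 and 66.1 in control heads. In these 3 genes the rescue took an intermediate level, apart from both other groups.

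CG13678 read 40.6 and 37.8 in rescue, 87.4 and 72.6 in mutant, and 25.7 and 26.4 in control heads. The X-linked gene b6 had 88.0 and 81.6 in rescue, 147.3 and 135.8 in mutant, and 53 and 63.7 in control heads. CG15080 had 66.2 and 58.9 in rescue, 107.7 and 106.1 in mutant, and 45.5 and 44.8 in control heads. These dim genes had an intermediate rescue level too. CG15739, of a phosphatase family, was brighter, with 518.4 and 528.3 in rescue, 879.6 and 742.4 in mutant, and 429.7 and 519.9 in control heads. Its rescue and control arrays overlapped. The other genes with CG numbers alone, CG40198, CG11409, CG31710, CG5707, CG32801 and CG2681, had mutant over control differences of 1.29, 1.10, 0.92, 0.90, 0.87 and 0.81 on the log2 scale, and rescue minus mutant differences of -0.84, -0.62, -0.63, -0.87, -0.85 and -0.69.

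For 39 of the 45 genes the arrays held 1 probe set with that single symbol. The other 6 had further probe sets, and none of these met either ratio limit. Which transcripts each probe set reads was not examined. For CARPB, a carbonic anhydrase-related protein, the probe set in the set read 29.2 and 27.6 in rescue, 53 and 45.7 in mutant, and 21.7 and 23.9 in control heads. The brighter probe set of the gene read 81.9 and 78 in rescue, 61.0 and 53.1 in mutant, and 80.3 and 79.1 in control heads, which is the opposite order. The 2 probe sets of CARPB thus disagreed in direction in both contrasts.

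M7BP, a binding partner of the motor myosin VIIa, had 469.3 and 474.8 in rescue, 765.0 and 750.1 in mutant, and 385.2 and 424.3 in control heads by its probe set in the set. Its 2 brighter probe sets had mutant minus control differences of 0.06 and -0.22 on the log2 scale, and rescue minus mutant differences of 0.10 and -0.16. CG33978 read 31.4 and 29.6 in rescue, 62.1 and 59.9 in mutant, and 29.9 and 26.9 in control heads by its probe set in the set. The brighter probe sets of CG33978 and CG32369 had mutant minus control differences of 0.30 and 0.21, against 1.10 and 1.23 for the probe sets in the set. The rescue minus mutant differences were -0.33 and -0.03 for the brighter ones, against -1.0 and -0.85. The brighter probe set of CG33978 also had both mutant arrays highest, and that of CG32369 did not. With the brightest probe set of each gene taken first, 41 genes met the rule and CARPB, M7BP, CG33978 and CG32369 dropped out.

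In the 2 other genes the further probe set was dimmer. CG42249 read 76.7 and 76.8 in rescue, 152.4 and 186.1 in mutant, and 61.8 and 53.2 in control heads. Its dimmer probe set gave 48.4 and 53.2 in rescue, 57.4 and 68.5 in mutant, and 55.8 and 49.7 in control heads, with the mutant arrays highest by a smaller margin. That of CG42367 read between 12 and 13.2 on all arrays, at the level of the dim control probe sets.

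**Figure D3:**
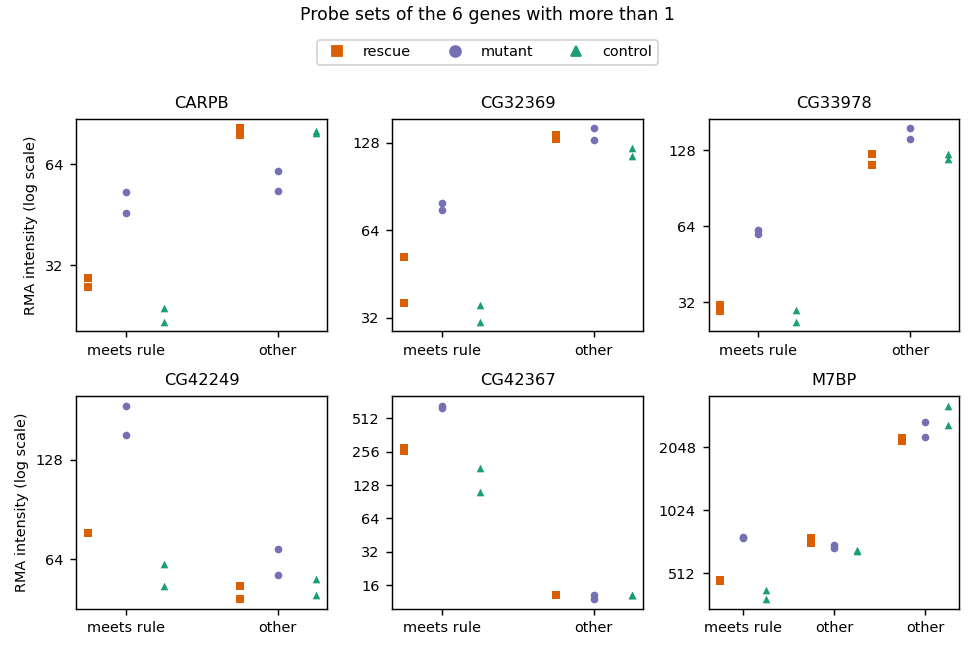
RMA intensity on a log scale for each probe set of the 6 genes with more than 1, with 2 points per group for the 2 arrays. The left cluster of each panel is the probe set that met the rule and the clusters to its right are the other probe sets of the gene. In CARPB the mutant points lie highest on the left and lowest on the right.

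The rule bounded rescue and control from above by the mutant but never set rescue against control, so this contrast was tested, with limma over all 18769 probe sets. Of the 45 genes, 12 were higher in rescue than in control heads, 1 was lower and 32 did not pass at an adjusted p of 0.05. Over all probe sets 6.83% were higher and 5.25% lower. The median rescue minus control difference was 0.26 on the log2 scale in the 45 genes, and -0.05 over all probe sets tested. An unadjusted p under 0.05 was reached by 23 of the 45 upward and by 2 downward. No share of all probe sets at that unadjusted level is given here, and the adjusted shares are no baseline for these counts. All 6 arrays helped to choose the genes, and the choice can itself shift this contrast. The shares over all probe sets are thus no matched baseline. The counts and adjusted p values describe this set and no more. Among the genes called higher, CG10073, CG7227 and CG13678 had both control arrays under 30, toward the floor of the arrays.

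The genes that stayed above control were CG4757 (log2 difference 1.99 ± 0.24 SE, adjusted p = 0.00387), CG10073 (1.54 ± 0.16, adjusted p = 0.00219), CG4962 (1.45 ± 0.094, adjusted p = 3.14e-04), CG7227 (1.35 ± 0.16), CG2157 (1.06 ± 0.083), CG13607 (1.0 ± 0.13), CG42367 (0.92 ± 0.21), Cnx99A (0.75 ± 0.076), CG13678 (0.59 ± 0.11), b6 (0.54 ± 0.11), CG15080 (0.47 ± 0.085) and BomT3 (0.46 ± 0.089). For CG4757, CG10073, CG4962, CG7227, CG2157 and Cnx99A the call held without any 1 array. CG13607 did not pass without rescue replicate 2 (adjusted p = 0.0548), nor did CG13678 and CG15080 without either rescue array (adjusted p from 0.0602 to 0.133). BomT3 did not pass without either rescue array or control replicate 2 (adjusted p from 0.0598 to 0.138), and b6 and CG42367 lost the call when a mutant or a rescue array was left out, whichever it was (adjusted p 0.054 to 0.186). The number higher was 7 without rescue replicate 1 and 6 without rescue replicate 2. With the 5' to 3' index in the fit BomT3 (adjusted p = 0.105) and CG15080 (adjusted p = 0.0695) were lost and CG11409 (adjusted p = 0.0436) passed. With the replicate block b6 (adjusted p = 0.0567) and CG42367 (adjusted p = 0.0534) were lost and CG13676 (adjusted p = 0.0381) passed.

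FarO was the gene below control, by 0.77 ± 0.16 on the log2 scale (a difference of -0.77, adjusted p = 0.0244, 1.70-fold higher in control). Leaving out control replicate 2, or whichever mutant or rescue array, lost the call (adjusted p 0.0571 to 0.173), and it passed without control replicate 1 (-0.97, adjusted p = 0.00414). The call was also lost with the replicate block (adjusted p = 0.0592), and the 5' to 3' index in the fit gave -0.41 (adjusted p = 0.119). CG11854 had a difference of 1.86 ± 0.63, and did not pass (adjusted p = 0.103). It was 2.73 without rescue replicate 1 and 0.99 without rescue replicate 2 (adjusted p = 0.0812 and 0.421). The difference of sug was 0.87 ± 0.39 (adjusted p = 0.182). It was 1.54 without control replicate 1 (adjusted p = 0.00184), 0.19 without control replicate 2 (adjusted p = 0.543), and -0.14 with the 5' to 3' index in the fit (adjusted p = 0.691).

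By array, both rescue arrays lay above both control arrays in 27 of the 45 genes, below both in 6, and overlapped them in 12. Among the 9431 probe sets of the same intensity these shares were 35.4% above and 32.3% below. Those probe sets were not chosen by the rule, so they are no matched baseline for the 45. The 6 below were FarO, CG4914, CG14297, per, Polr1E and CG6283. Of these, CG4914, CG14297, per, Polr1E and CG6283 had differences of -0.23, -0.19, -0.14, -0.13 and -0.12, none of which passed (adjusted p from 0.134 to 0.592).

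**Figure D4:**
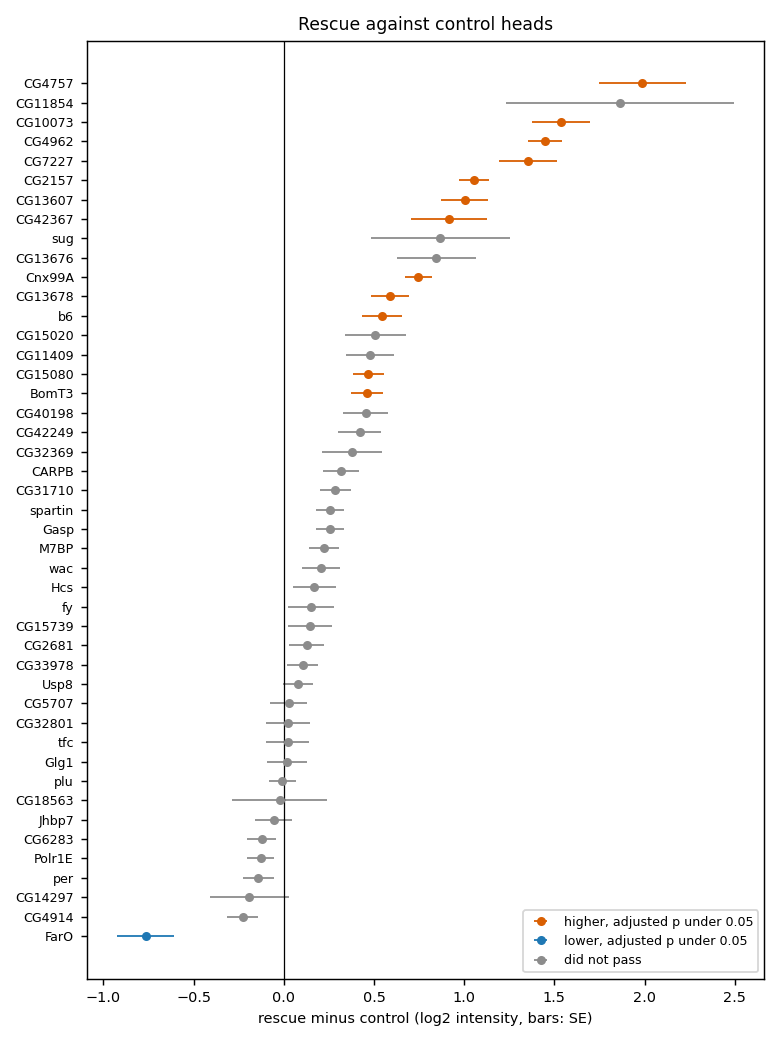
Rescue minus control difference of each of the 45 genes on the log2 intensity scale with its SE from limma, ordered by size. Orange points passed as higher, the blue point passed as lower and grey points did not pass. The values run from -0.77 for FarO to 1.99 for CG4757.

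The restored share, the mutant minus rescue difference over the mutant minus control difference on the log2 scale, had a median of 72.9%. The rule sets its lower end, since a gene with a small mutant minus rescue difference could not enter. That lower end rises as the mutant over control difference gets smaller, so low shares could occur only in genes with a large difference. It was under 50% in 6 genes, between 50% and 75% in 17, between 75% and 100% in 13, and at least 100% in 9. The lowest share was 35.3% in CG4757, followed by CG10073 at 36.2% and CG7227 at 38.6%. Next were CG2157, Cnx99A and CG13607 at 41.4%, 42.7% and 45.1%. Both control arrays of CG10073 and of CG7227 read under 30, toward the floor of the arrays. The 9 at or above 100% were FarO at 191%, CG4914 at 131%, per at 126%, Polr1E at 118%, Jhbp7 and CG14297 at 109%, CG6283 at 107%, and CG18563 and plu at 101%. Large mutant over control differences occurred at both ends, with CG4757 at the low end and CG18563, CG14297 and CG6283 at or above 100%. In these last genes the rescue and control arrays all read under 40, toward the dim end.

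The 45 genes were spread over the genome. Chromosome arm 3R held 14, 3L and X held 10 each, 2R and 2L 5 each and chromosome 4 held 1. The X held 22.2% of the set and 15.8% of the genes it was drawn from, and 2R, which carries mir-14, held 11.1% and 19.8%. The nearest to mir-14 among those on 2R was M7BP, 260 measured genes away, and sug was 425 away. Apart from CG11854 and Jhbp7, the closest pair was per and CG2681, 7 genes apart on the X. In 21 of the 45 genes the annotated gene overlapped another gene, and the probe sets' strand and position were not available here to tell such pairs apart.

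Lists of related genes were tested after the genes of the set, 1 on each list, were removed. Genes that met the rule were thus taken out beforehand. The counts describe the remaining genes and not the lists as a whole. Counts at an unadjusted p under 0.05 are given without a share over all probe sets at that level, so they have no baseline here. The shares called by limma among all probe sets were 6.88% (higher) and 3.88% (lower) for mutant against control, and 0.693% (higher) and 0.709% (lower) for rescue against mutant. Of the 33 other measured genes for very long chain fatty acids and hydrocarbons, the pathway of FarO, 1 was lower in rescue than in mutant heads, CG4770 (-0.84 ± 0.12, adjusted p = 0.0237), and none was higher, against 1 in each direction at an unadjusted p under 0.05. That call of CG4770 was lost when mutant replicate 1 or a rescue array was left out. CG4770 met both ratio limits and missed the set only on brightness. Its calls in both contrasts are thus not independent of the rule. Between mutant and control, 2 of the 33 were higher (CG4770 and ifc) and 1 lower (CG17821). Without control replicate 1 these counts were 4 and 2, and without any other array 1 and 0, the 1 being CG4770, which was higher by 0.88 ± 0.12 (adjusted p = 0.00529). The list's median difference was 0.01 for rescue minus mutant and -0.09 for mutant minus control, beside -0.02 and -0.03 over all probe sets.

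Of 20 other serine protease, serpin and protease inhibitor genes, none differed between rescue and mutant heads (limma), while an unadjusted p under 0.05 was reached by 4 upward and 1 downward. Between mutant and control 3 were higher, CG16713, psh and Spn43Aa, and none lower. The count higher was 5 without control replicate 1 and 2 without each other array, 1 was lower without control replicate 2, and Spn43Aa lost its call whichever array was left out. CG16713, a protease inhibitor, read 604.1 and 570.8 in rescue, 479.9 and 409.3 in mutant, and 23.6 and 20.1 in control heads, so that its rescue arrays lay far above control, which those of CG18563 did not. The medians of this list were 0.07 for rescue minus mutant and 0.08 for mutant minus control.

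Of 22 other lipid storage and synthesis genes, none passed between rescue and mutant heads (limma), while an unadjusted p under 0.05 was reached by 4 upward and 3 downward, and 2 were higher without either control array. Between mutant and control, whd and Mtp were higher and bmm, Lsd-2 and CG5966 lower. The 2 higher genes also read high in the rescue, whd at 1841.8 and 1894.2 in rescue, 1711.8 and 1693.4 in mutant, and 883.5 and 862.6 in control heads. Their counts were 5 higher without control replicate 1, and the number lower was 2 when a control array was left out, 1 when mutant replicate 1 or a rescue array was, and 0 when mutant replicate 2 was. The list's medians were 0.06 for rescue minus mutant and 0.01 for mutant minus control.

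Of 18 other sugar-responsive genes, an unadjusted p under 0.05 between rescue and mutant heads was reached by 5 upward and 2 downward (limma). By adjusted p, 2 were higher and none lower in rescue than in mutant heads, tobi and UGP, which is the direction opposite to sug. Leaving out mutant replicate 1 left 1 of them, and leaving out mutant replicate 2 or a rescue array left 0. Between mutant and control 6 were higher and 2 lower. The counts were 8 and 3 without control replicate 1, 4 and 0 without either mutant array, and 5 and 0 without either rescue array. The list's medians were 0.12 for rescue minus mutant and 0.25 for mutant minus control. Of the 4 genes other than sug that were reported before as targets of miR-14, EcR, hh, ptc and IP3K2, none passed in either contrast (limma), against 2 higher in mutant than in control heads at an unadjusted p under 0.05 and none between rescue and mutant. EcR was higher in the mutant without control replicate 1. The medians of these 4 were -0.11 for rescue minus mutant and 0.14 for mutant minus control.

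Markers of head cell types were bright. The median of the highest array was 935 over 6 neuronal markers, 891 over 7 glial markers and 5722 over 5 photoreceptor markers, while 7 of 8 testis markers and 7 of 8 male accessory gland markers stayed under 40 on all arrays. Of the 7 glial markers 2 were higher and 1 lower in mutant than in control heads, and 2 were higher and none lower in rescue than in control heads (limma). Some fat body and hemocyte markers differed as well. The fat body sum below is weighted to bright genes. Lsp2 read 11784.4 and 12081.5 in rescue, 7835.2 and 7134.1 in mutant, and 12693.3 and 12677.6 in control heads. In contrast, apolpp read 9925.3 and 10214.2 in rescue, 10217.3 and 9972.0 in mutant, and 9613.9 and 8676.8 in control heads. Yp1 and Yp2 stayed under 40 on all arrays. Summed over 7 fat body markers the intensity was 31944.9 and 32564.2 in rescue, 26553.7 and 25778.7 in mutant, and 35077.4 and 32829.0 in control heads, with 1 of 7 higher in rescue than in mutant heads, 2 of 7 lower in mutant than in control heads and 1 of 7 lower in rescue than in control heads. For 8 hemocyte markers the sums were 2476.7 and 2467.9 in rescue, 1420.7 and 1864.6 in mutant, and 1847.0 and 1183.6 in control heads, with none past the threshold between rescue and mutant, 1 higher in mutant than in control heads and 2 higher in rescue than in control heads. Neither of these sums was highest in the mutant, as the 45 genes were, and their part in the differences was not tested. Replicates of a group correlated at 0.998 in rescue, 0.997 in mutant and 0.994 in control across probe sets.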

How the data were processed

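Total RNA of adult heads was hybridised to 6 Affymetrix arrays, 2 per group. The deposited values are 1 intensity for each probe set on each array. The submitters' processing notes name RMA, a method of background correction, quantile normalization and probe summary, and the sources used here give no version of it. They are linear, from 5.6 to 16778.3, with medians near 60 on each array (59.25 to 60.2). RMA equalises the arrays and compresses differences of dim probe sets. Detection calls were not available, so whether a dim probe set lies above background is unknown, and the number of arrays limits the precision. The labels call the replicates biological and do not say how flies were pooled.

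The arrays list 18952 probe sets, of which 183 are controls and were dropped. Of the other 18769, 13647 had 1 gene symbol in the platform annotation, 402 several and 4720 none. All 45 genes matched the gene table of assembly Release 6 plus ISO1 MT and 0 symbols changed. The table served for names, chromosomes and gene order.

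Rescue against control, and the lists, were tested on log2 intensity in R 4.3.3 by limma 3.58.1 (linear model with moderated variance, two-sided, all 3 groups sharing 1 estimate of the spread), with Benjamini-Hochberg adjustment over 18769 probe sets. With 2 arrays against 2, a permutation test of a single gene cannot pass 0.05. The fitting procedure was tested on simulated data. The genes of the set, the lists and the tests were chosen with earlier results of these data known. Full values were given for the 12 genes with the largest mutant over control and the 10 with the largest mutant over rescue difference, the 6 lowest and 6 highest in rescue minus control, the 6 brightest in mutant, those on a list and the 3 nearest each limit. Others with a described role or several probe sets were added after their values were seen.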

Additional observations from a re-analysis of the deposited data

How the results depend on the processing

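The size of the set depended on the limits. It was 74 genes at 1.3-fold, 28 at 1.5-fold, 6 at 2-fold and 96 with group means in place of the extreme arrays. It was 48 and 39 with a highest intensity of at least 20 and 80, 52 with no family left out, 46 with arrays scaled to the same median, 41 with quantile normalization again and 41 with the brightest probe set per gene taken first. Without 1 array it ranged from 46 to 83, the highest counts being 71 and 83 when mutant replicate 1 or 2 was dropped, where leaving out an array can only loosen the ratio limits. Of the settings other than a higher fold, only the minimum of 80, both rescalings and the brightest probe set first could readily remove a gene, and 33 of the 45 stayed in under all of these. BomT3, CG15739, FarO, per and tfc were lost when quantile normalization was applied again.

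Between rescue and control the number of genes higher ranged from 6 to 16 without 1 array and the number lower from 0 to 1. With the replicate number as a block 11 were higher and 0 lower, with a covariate for the 5' to 3' signal 11 and 0, with only these groups in the fit 11 and 0, and with the log2 of the value plus 16 it was 14 and 1. Over all probe sets, 1281 were higher and 985 lower, against 846 and 533 with the replicate block, 593 and 349 with the covariate, 812 and 498 with only these groups in the fit, and between 304 and 2363 higher and 145 and 2516 lower without 1 array. The replicate numbers were not taken as pairs: replicate 1 deviations correlated at -0.26 between mutant and control, 0.0036 between rescue and mutant and -0.19 between rescue and control. With the control numbers crossed, an alternative chosen after seeing the data, 17 were higher and 1 lower. The median rescue minus control difference stayed between 0.21 and 0.28, and the median restored share between 71.9% and 76.2%. For single genes of the set no called difference changed sign under any setting run. For the lists together, the number higher in mutant than in control was 13, and between 9 and 23 without 1 array, the number lower 6, and between 0 and 7, and with the block 11 and 1. Taking the brightest probe set first was also chosen after seeing the data. Causes of these shifts were not tested.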

Other observations

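The rule was also met by probe sets that stand outside the 45 genes: 8 with no gene symbol, 2 assigned to several genes and 8 of the left-out families. A probe set of SPH93 and RSG7 read 40.6 and 38.2 in rescue, 1633.8 and 554.6 in mutant, and 26.4 and 25.6 in control. A probe set of Edem1 and CG32801 read 323.6 and 307.3 in rescue, 532.3 and 502.2 in mutant, and 244.9 and 281.1 in control. CG32801 is in the set by another, dimmer probe set. Values of 3 bright unnamed probe sets follow. Probe set 1630934_at read 528.8 and 549.2 in rescue, 3421.4 and 3289.5 in mutant, and 811.6 and 1082.9 in control heads, so that both rescue arrays lay below both control arrays. Probe set 1635636_at read 1994.0 and 3292.1 in rescue, 8574.2 and 5896.6 in mutant, and 1756.9 and 878.4 in control heads. Probe set 1626319_a_at read 2734.8 and 2863.5 in rescue, 4641.1 and 4482.3 in mutant, and 137.7 and 137.4 in control heads, with the rescue arrays far above control.

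Among the left-out families, Arc1 met it with both of its probe sets, at 6968.0 and 6818.1 in rescue, 12454.7 and 12469.6 in mutant, and 2488.2 and 2186.6 in control heads for the brighter. The others were Cpr92F, Cpr62Bc, Cpr97Eb, Cyp304a1, Ugt305A1 and Obp83g. Of the 3 Cpr cuticle genes, Cpr62Bc was the brightest, with 102.1 and 99.6 in rescue, 206.4 and 192.1 in mutant, and 107.0 and 131.0 in control heads.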
